A study of Homo sapiens with 11 samples.

Results

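This report describes 1447 regions of the genome that carried acetylated histone H3 (H3K27ac) after estradiol and after estradiol with dexamethasone, and in which no peak was called after vehicle or after dexamethasone alone. They were chosen from the H3K27ac calls themselves. Overlapping or bookended peaks of 4 H3K27ac lists were merged into 27111 regions, and a region was kept when it held a peak of the estradiol list and of the combination list and none of the other lists. The 1447 regions, called E2-plus-combination regions here, are 5.34% of the merged regions. Presence and strength of H3K27ac in them were used by that rule and are given as a description, without a test. The receptor lists come from other libraries, which the rule did not use.

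The data are chromatin immunoprecipitation sequencing (ChIP-seq) peak lists from Ishikawa cells, a human endometrial cancer line grown without phenol red and in charcoal-treated serum. The groups were DMSO (vehicle), 10 nM estradiol, 100 nM dexamethasone (a synthetic glucocorticoid), and both hormones at those doses, called the combination. Per the treatment labels, H3K27ac was mapped after 8 h in all of these groups, and the treatment protocol text gives 1 h for the same samples. The estrogen receptor (ER) was mapped after 1 h of estradiol or of the combination, and the glucocorticoid receptor (GR) after 1 h of dexamethasone or of the combination. Receptor binding at 8 h was not measured. ER and GR after vehicle were not analysed here, so a receptor site means a peak over a control library, not a gain over vehicle. All libraries come from a single cell line, and the identity of the line was not checked against marker genes.

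Each group held 1 library, so no spread between replicates can be given and no p-value was computed between treatments. Intervals in parentheses are 95% intervals over regions or sites. They cover counting error only, and neighbouring regions or sites that share an enhancer are not independent. The libraries were made from bulk cells, so acetylation in fewer cells and less acetylation per cell cannot be told apart. Usable H3K27ac tags numbered 18508574 with vehicle (scaled to 14002417 for peak calling), 10852521 in the estradiol library, 9034395 in the dexamethasone library and 9657258 in the combination library. The receptor libraries held 5206574 to 8508828 usable tags, and both ER libraries were scaled to 3479280. The dexamethasone H3K27ac library stood apart from the others: 33% of its tags were duplicates, against 18% to 22% in the others, and its list of 15192 peaks was the shortest. Leaving that list out, which was chosen after seeing the data, gave 1966 regions with an estradiol and a combination peak and no vehicle peak.

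Estradiol acts through ER, a nuclear receptor that binds DNA and recruits coactivators, among them enzymes that acetylate histones. H3K27ac marks active promoters and enhancers, and its appearance is widely used to locate enhancers that a signal has switched on. GR is a related nuclear receptor that binds DNA when a glucocorticoid is present. In the endometrium estrogen drives the growth of the epithelium, and glucocorticoids are known to oppose part of the estrogen response there. Regions acetylated with estradiol both with and without dexamethasone are the portion of that acetylation still called in the presence of the second hormone.

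Acetylation in the E2-plus-combination regions was of moderate strength and was centred at the same place in both lists. The median region was 645 bp wide (middle 50% from 475.5 to 953 bp), with extremes of 290 and 8509 bp. The median fold enrichment, which is the authors' ratio of the pileup at the peak summit to the local control background, was 9.27 in the estradiol list (middle 50% from 7.47 to 11.9). In the combination list it was 8.64 (7.19 to 10.6). Most regions were simple: 1294 of them held exactly 1 peak in each list. The estradiol and combination summits lay a median of 78 bp apart, and 839 regions had them within 100 bp of each other. The rule favours short distances, since with 1 peak in each list the peaks must overlap or adjoin. The distance was not computed for other classes. These regions were weaker than the lists they came from, since 24.9% of them reached the stronger 50% of the estradiol list and 23.8% reached the stronger 50% of the combination list. In the same order, 5.81% and 7.46% reached the strongest 25% of those lists.

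The fold enrichments of the same region in the 2 lists tracked each other loosely. Spearman's rho across the 1447 regions was 0.516, given as a description, since the peaks share the control and regions are not replicates. The fold was higher in the estradiol list in 876 regions and higher in the combination list in 571. Estradiol peaks covered more base pairs in 923 regions and combination peaks did in 523, with totals of 1073824 and 943721 bp. The libraries differ in depth and fragment length, so these counts compare calls in a pair of lists and not levels of acetylation.

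**Figure D1:**
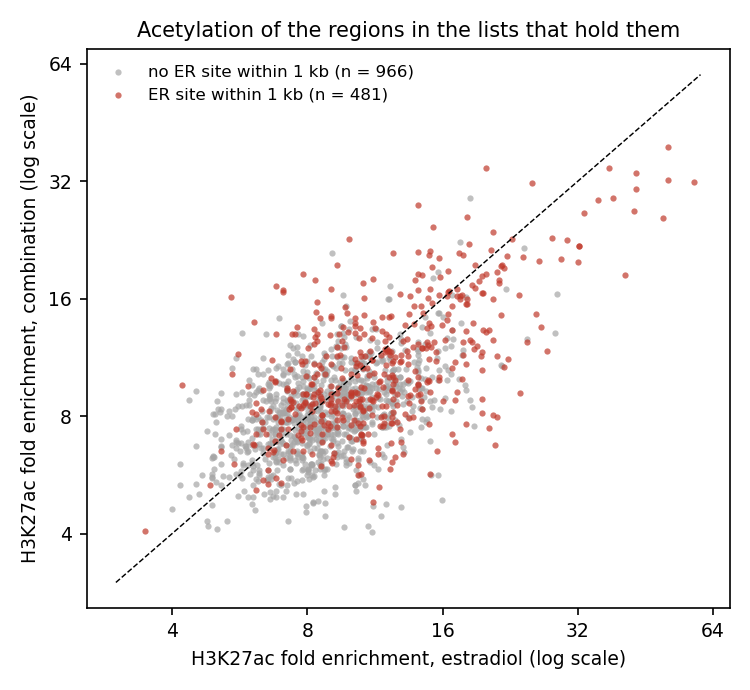
H3K27ac fold enrichment of each of the 1447 E2-plus-combination regions in the estradiol list (horizontal axis) and in the combination list (vertical axis), both on log scales, with a dashed line of equality. Red points are the 481 regions with an ER site of either list within 1 kb and grey points are the other 966; of the 20 regions with the best mean rank, towards the upper right, 19 have an estradiol ER site.

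ER sites lay near a large minority of these regions, and dexamethasone GR sites near few of them or of the estradiol list alone. A site was counted when any part of it lay within 1 kb of the region. Of the 1447 regions, 474 (32.8%, 30.3 to 35.2) had an estradiol ER site, where 9.49% of all merged regions did. An ER site of the combination list lay near 402 (27.8%, 25.5 to 30.2), against 7.05% of all merged regions. A dexamethasone GR site lay near 29 (2.0%, 1.35 to 2.87), below the 4.63% of all merged regions. A combination GR site lay near 172 (11.9%, 10.3 to 13.7), above the 4.54% of all merged regions. Counting only sites that overlapped the region, the shares were 19.3% for estradiol ER (6.01% of all merged regions), 17.3% for combination ER (4.63%), 0.829% for dexamethasone GR (2.94%) and 7.12% for combination GR (2.82%).

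The share with a dexamethasone GR site depended on the dexamethasone H3K27ac list, which the rule used to remove regions. Without that list it was 4.58% (3.7 to 5.6), beside 4.49% of the 26055 regions merged without it, so the lower share was not seen there. The shares with estradiol ER, combination ER and combination GR were then 28.3%, 24.1% and 11.7%.

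The closest contrast is with the 3899 regions that were acetylated in the estradiol list alone, that is, called with estradiol and not with the combination. Among those, estradiol ER lay within 1 kb of 312 (8.0%, 7.17 to 8.9), ER of the combination of 211 (5.41%, 4.72 to 6.17) and GR of the combination of 45 (1.15%, 0.843 to 1.54). The share in E2-plus-combination regions was 4.09 times as high for estradiol ER (3.6 to 4.66), 5.13 times for combination ER (4.4 to 6.0) and 10.3 times for combination GR (7.46 to 14.2). Against the 7516 regions present in all 4 lists, the ratios were 2.21 (2.02 to 2.43) for estradiol ER and 1.63 for combination GR, while dexamethasone GR lay near 9.07% of the regions of all lists. Dexamethasone GR was rarer still in the estradiol list alone, at 29 of 3899 regions (0.744%), so that the share in E2-plus-combination regions was 2.69 times as high (1.62 to 4.49). Region width was not held equal in these ratios.

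**Figure D2:**
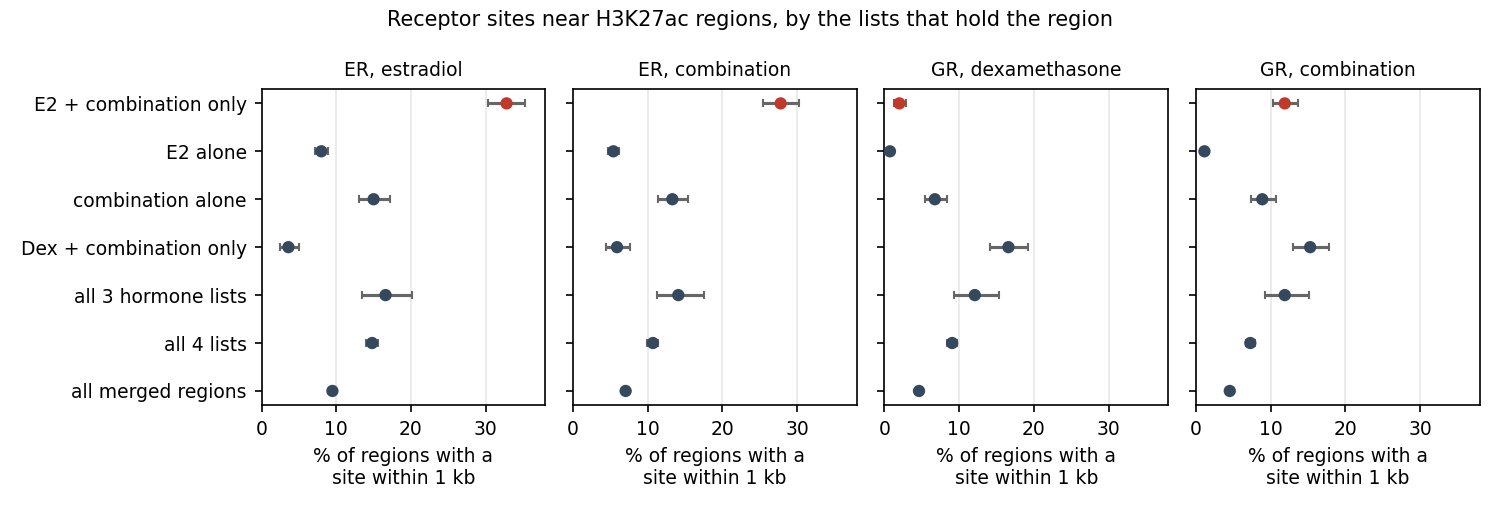
Percent of regions with a receptor site within 1 kb (horizontal axes), for each receptor list (panels) and each class of merged H3K27ac region (rows), with exact 95% intervals over regions as bars. The E2-plus-combination regions (red, named E2 + combination only) have the highest share for both ER lists, at 32.8% and 27.8%, and the second lowest for dexamethasone GR, at 2.0%. For combination GR they have 11.9%, as do regions of all 3 hormone lists, below the 15.3% of regions of the dexamethasone and combination lists only.

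Region width moved with these shares, and the window searched for a site grows with the region. E2-plus-combination regions had a median width of 645 bp, regions of the estradiol list alone 353 bp and regions of all 4 lists 1562 bp. Among E2-plus-combination regions, ER after estradiol lay near 17.3% (14.4 to 20.5) of those from 300 up to 600 bp, 34.3% (30.1 to 38.8) of those from 600 up to 1000 bp and 60.4% (54.9 to 65.7) of those of 1000 bp or more. The same width classes of the estradiol list alone gave 7.8%, 14.3% and 32.1%, the last from 9 of 28 regions. Regions of all 4 lists gave 4.47%, 4.43% and 18.1%.

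Within width classes the excess of ER over the estradiol list alone was smaller, with intervals above 1 in the 3 wider classes. The ratio was 2.22 (1.79 to 2.75) from 300 up to 600 bp, 2.39 (1.8 to 3.18) from 600 up to 1000 bp and 1.88 (1.09 to 3.24) for 1000 bp or more. Only 8 E2-plus-combination regions were under 300 bp, and 1 of them had an ER site. Combination GR sites followed the same order, at 3.97%, 10.7% and 29.0% of E2-plus-combination regions in the 3 wider classes. Regions of the estradiol list alone had 1.32%, 1.43% and 3.57% (1 of 28) in those classes. For dexamethasone GR the ratio to the estradiol list alone was 1.51 (0.637 to 3.57) from 300 up to 600 bp. From 600 up to 1000 bp it was 2.68 (0.752 to 9.52), so both intervals included 1. At 1000 bp or more dexamethasone GR lay near 11 of 331 regions against 0 of 28.

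**Figure D3:**
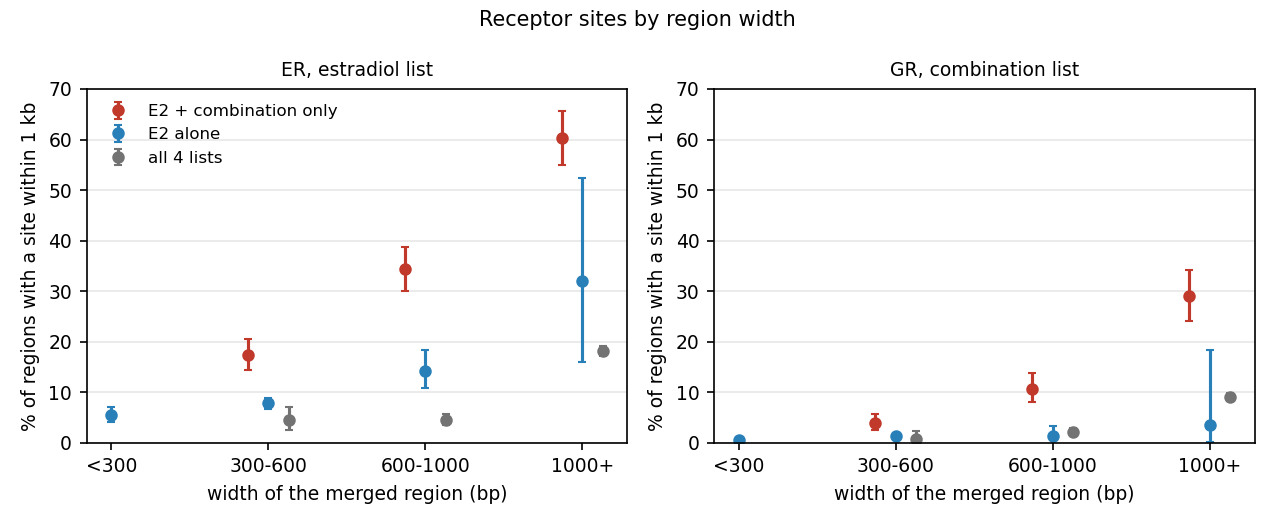
Percent of regions with an estradiol ER site (left) or a combination GR site (right) within 1 kb, by width of the merged region in bp, with exact 95% intervals; classes with under 20 regions are not drawn. E2-plus-combination regions (red) lie above regions of the estradiol list alone (blue) and of all 4 lists (grey) in each class where they are drawn together, though the blue interval at 1000 bp or more rests on 28 regions.

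The strength of the estradiol acetylation peak moved with the ER share as well. Regions of the estradiol list alone were weaker, with a median −log10 q of 18.1 against 23.9. Peaks of the estradiol list were divided into 4 equal classes by −log10 q. In the strongest class, 71 of 84 E2-plus-combination regions (84.5%, 75 to 91.5) had an estradiol ER site, and the estradiol list alone held no region. In the next class the shares were 52.4% and 11.0%, a ratio of 4.76 (2.7 to 8.41). They were 26.8% and 7.95% in the third, a ratio of 3.37 (2.66 to 4.28), and 21.0% and 7.91% in the weakest, a ratio of 2.65 (2.16 to 3.27). Combination GR sites fell along the same classes in E2-plus-combination regions, at 47.6%, 19.6%, 7.98% and 6.41%, and lay between 0.994% and 2.0% in the estradiol list alone. For dexamethasone GR the ratio was 3.61 (1.41 to 9.25) in the third class and 1.68 (0.751 to 3.75) in the weakest. Width and strength were not held equal at the same time.

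Strong E2-plus-combination regions were mostly ER regions and weak ones mostly were not. Ranked by the mean of their ranks in both lists, the strongest 25% held estradiol ER in 63.0% of cases (57.8 to 68.0), and the following 25% classes in 30.7%, 19.6% and 17.7% (13.9 to 22.1). Combination GR lay near 29.6%, 8.29%, 5.52% and 4.16% along the same classes. Dexamethasone GR had no steady order along these classes, with 3.31%, 1.1%, 2.21% and 1.39%, from 12, 4, 8 and 5 regions. By strength of the estradiol peak alone it fell, at 3.57%, 2.55%, 2.09% and 1.42%, with intervals that overlapped. These counts are too few to tell whether dexamethasone GR moved with strength. Regions with no estradiol ER site within 1 kb had a median width of 571 bp and a median estradiol fold of 8.56. The 420 regions with 1 such site had 883.5 bp and 11.1, and the 51 regions with 2 had 1108 bp and 12.5.

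Taken by the receptors they held, the regions fell into a few kinds. No receptor site of any list lay within 1 kb of 951 regions (65.7%). ER of both ER lists and no GR lay near 242 (16.7%), and ER of both lists together with GR of the combination alone lay near 137 (9.47%). ER of the estradiol list and nothing else lay near 73 (5.04%), and sites of all 4 receptor lists lay near 16 (1.11%). The other 28 regions had rarer patterns, some of them with sites of a single list. The regions with ER of both lists and combination GR were the widest of the 4 largest kinds, with a median of 1142 bp and median folds of 13.2 (estradiol) and 12.5 (combination). Those with no receptor site had 568 bp, 8.54 and 8.09.

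Combination GR sites at these regions mostly lay with ER. Of the 172 regions with a combination GR site, 163 also had an ER site of either list. Counting estradiol ER sites only, it was 159 of the 172, and 41 of 45 in regions of the estradiol list alone. The pairing was therefore not particular to E2-plus-combination regions. It was 364 of 548 in regions of all 4 lists and 56 of 104 in those of the combination list alone. Of the 474 regions with an estradiol ER site, 159 (33.5%, 29.3 to 38) had a combination GR site. In ER-bearing regions of the estradiol list alone this was 41 of 312 (13.1%, 9.6 to 17.4). It was 32.7% (30 to 35.6) in those of all 4 lists and 31.8% (25 to 39.2) in those of the combination list alone. Of the 29 regions with a dexamethasone GR site, 20 had an ER site of either list and 23 had a combination GR site. The same shares were not computed for regions of other classes with a dexamethasone GR site, or for all dexamethasone GR sites. Whether they are particular to E2-plus-combination regions is therefore not known.

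Seen from the GR list, E2-plus-combination regions held many of the GR sites called with the combination alone. Of 600 combination GR sites with no overlapping dexamethasone GR site, 121 (20.2%, 17.0 to 23.6) lay within 1 kb of these regions. Of 1028 combination GR sites also called with dexamethasone, 18 (1.75%, 1.04 to 2.75) did, and over all 1628 combination GR sites it was 8.54%. The rule leaves out regions with a dexamethasone H3K27ac peak, which by construction can lower the share for GR sites called with dexamethasone. The 139 combination GR sites at these regions overlapped an estradiol ER site in 122 cases (87.8%, 81.1 to 92.7). The same share was not computed for all 1628 combination GR sites or for the 600. Whether it is particular to these regions is therefore not known.

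From the side of ER, 412 of the 3560 estradiol ER sites (11.6%, 10.5 to 12.7) lay within 1 kb of an E2-plus-combination region, and 66.0% lay within 1 kb of any merged region. The ER sites at these regions were strong. They made up 22.6% of the strongest 25% of estradiol ER sites, and 10.1%, 7.75% and 5.84% of the following classes. Regions of the estradiol list alone took 11.0%, 8.09%, 7.08% and 5.96% of the same classes, and in the strongest class the intervals did not overlap (19.9 to 25.5 against 9.03 to 13.3). A combination ER peak overlapped 322 of the 412 (78.2%, 73.8 to 82.1), against 61.8% of all estradiol ER sites, and 121 (29.4%, 25 to 34) overlapped a combination GR site, against 19.7%. The differences from the other estradiol ER sites were smaller within strength classes. Strongest first, combination GR overlapped 46.3%, 17.8%, 11.6% and 7.69% at E2-plus-combination regions, against 41.5%, 17.4%, 10.1% and 8.83% elsewhere. For combination ER it was 99.5%, 84.4%, 55.1% and 15.4%, against 98.7%, 80.8%, 44.7% and 22.1%. An overlapping dexamethasone GR site was found at 11 of the 412 (2.67%, 1.34 to 4.73), against 10.0% of all estradiol ER sites. That share was 2.45% (0.99 to 4.98) at regions of the estradiol list alone and 2.97% at ER sites with no H3K27ac region within 1 kb, so the low value was not particular to E2-plus-combination regions.

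Among the strongest ER sites, nearly all kept their ER call with the combination in both classes of acetylation. The GR call was more frequent at E2-plus-combination regions than at regions of the estradiol list alone. Width and strength of the acetylated regions were not held equal there. The 57 ER sites within 1 kb of both an E2-plus-combination region and a region of the estradiol list alone were left out. In the strongest 25% of estradiol ER sites, the combination ER list held 178 of 179 sites at E2-plus-combination regions (99.4%) and 74 of 76 at regions of the estradiol list alone (97.4%). The median ER folds of these sites were 28.3 and 27.7. The combination GR list held 90 of the 179 (50.3%, 42.7 to 57.8) and 20 of the 76 (26.3%, 16.9 to 37.7), a ratio of 1.91 (1.28 to 2.86). With both H3K27ac peaks in the stronger 50% of their lists, the interval of that ratio (0.713 to 8.03) included 1. At the strongest ER sites with no H3K27ac region within 1 kb, the GR share was 20.8% (38 of 183). Those next to regions of all 4 lists had 56.9%, against 48.7% at E2-plus-combination regions when sites near both were left out, a ratio of 0.855 (0.719 to 1.02). With shared sites kept, the GR share was 46.3% at E2-plus-combination regions. It was then 35.0% (14 of 40) at regions of the combination list alone and 66.7% (18 of 27) at those of all 3 hormone lists without vehicle.

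The weaker ER sites gave less precise values. In the second class, combination GR overlapped 15 of 74 sites at E2-plus-combination regions (20.3%) and 3 of 56 at regions of the estradiol list alone (5.36%), a ratio of 3.78 (1.15 to 12.4). In the third class the shares were 12.1% and 3.85%, with an interval of the ratio from 0.682 to 14.4, and in the weakest 9.09% and 6.67%. For combination ER the intervals of the ratio included 1 in the strongest, second and weakest classes, and in the third the shares were 60.3% and 38.5%, a ratio of 1.57 (1.05 to 2.35).

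**Figure D4:**
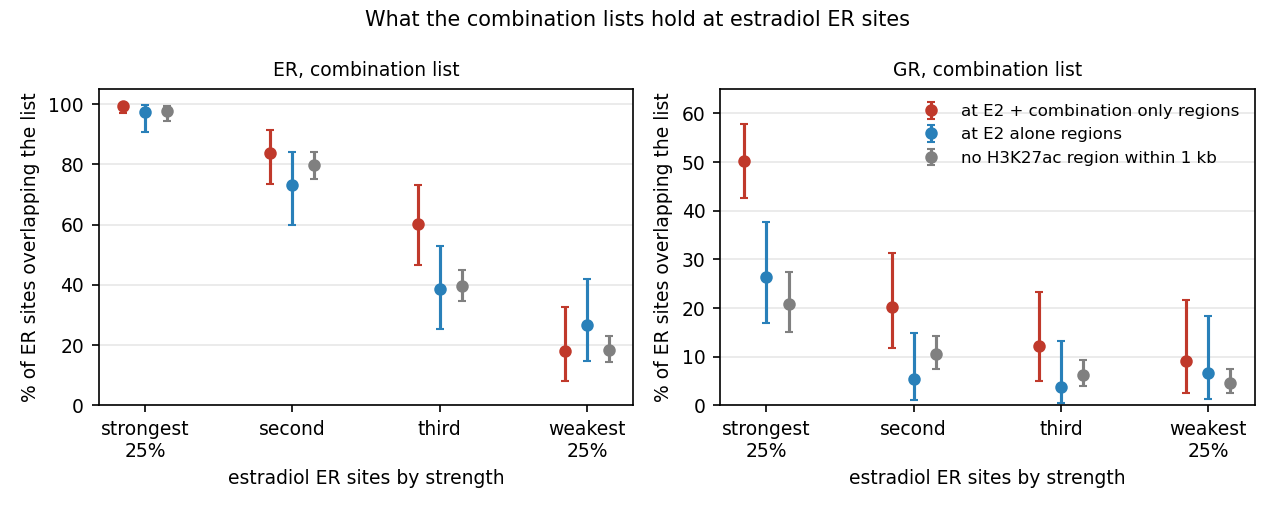
Percent of estradiol ER sites that overlapped a combination ER site (left) or a combination GR site (right), by strength class of the ER site, with exact 95% intervals over sites. In the strongest class the ER shares all lie above 97%, while GR overlapped 50.3% of sites at E2-plus-combination regions (red), 26.3% at regions of the estradiol list alone (blue) and 20.8% where no H3K27ac region lay within 1 kb (grey).

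ER summits inside these regions mostly lay some distance from the acetylation maximum. Of the 412 ER sites, 185 (44.9%, 40 to 49.8) had their summit inside an E2-plus-combination region, and 151 of these summits fell on an estradiol H3K27ac peak. Another 77 ER summits (18.7%) lay in a gap with E2-plus-combination regions on both sides within 1500 bp, and 76 (18.4%) had one on one side and another kind of H3K27ac region on the other side. The rest were 37 with such a region on one side only and 37 inside another kind of H3K27ac region. For the 185 summits inside, the distance to the closest estradiol H3K27ac summit had a median of 341 bp (middle 50% from 237 to 488), and 12 (6.49%) lay within 100 bp. The 157 combination ER summits lay a median of 343 bp from the closest combination H3K27ac summit. In the wider regions of all 4 lists the median distance was 503.5 bp over 1228 ER summits. In the narrower regions of the estradiol list alone it was 156 bp over 47 ER summits, 10 of which (21.3%) lay within 100 bp.

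**Figure D5:**
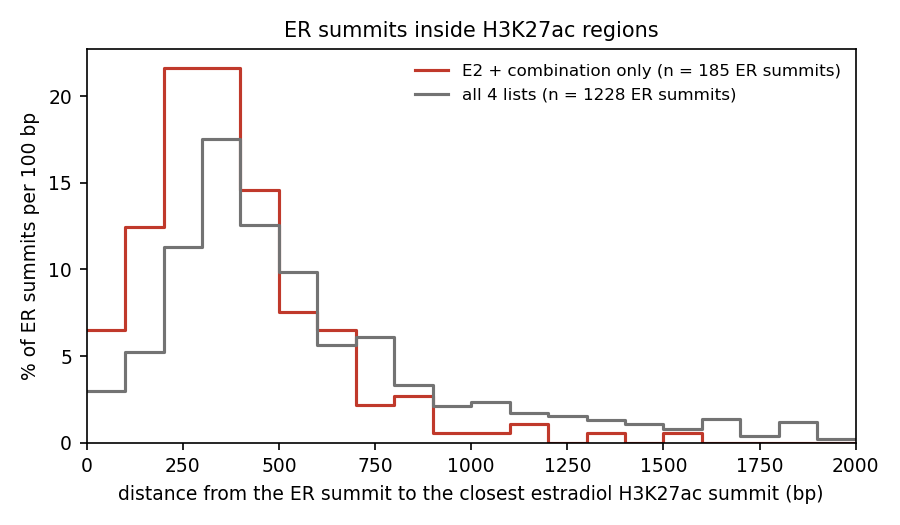
Distance from each estradiol ER summit inside a region to the closest estradiol H3K27ac summit (horizontal axis, bp), as percent of ER summits per 100 bp (vertical axis), for E2-plus-combination regions (red, 185 summits) and regions of all 4 lists (grey, 1228). Both curves are low within 100 bp; 2 and 139 summits lie beyond the 2000 bp drawn.

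The 20 E2-plus-combination regions with the best mean rank show the strong end of the class. Of these, 19 had an estradiol ER site, 19 a combination ER site, 14 a combination GR site and 0 a dexamethasone GR site within 1 kb. They were 1770 to 7267 bp wide, with folds of 14.4 to 57.9 (estradiol) and 12.1 to 39.1 (combination), and 18 had the higher fold in the estradiol list. The strongest, chr2:233237974-233242603 (hg19, as are all positions here), was 4630 bp wide with H3K27ac folds of 50.9 and 39.1. It held ER at chr2:233239901-233240133, with a fold of 20.9 after estradiol and 39.5 after the combination, and combination GR (19.4) on the same spot. The nearest dexamethasone GR site was 1493321 bp away.

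On the same chromosome, chr2:238465767-238469252 had H3K27ac folds of 50.8 and 32.2, ER folds of 35.9 and 49.6, and a combination GR fold of 49.8 at its ER site. The region chr11:69948532-69955798, 7267 bp wide, held 3 estradiol ER sites, 3 combination ER sites and 3 combination GR sites. Its H3K27ac folds were 38.4 and 29.0, and its strongest sites had folds of 34.0, 44.1 and 41.3 for estradiol ER, combination ER and combination GR. At chr3:150560753-150564389 the order of the H3K27ac lists was turned, with folds of 25.3 and 31.6, and 1701 bp covered with estradiol against 3637 bp with the combination. Its combination GR site had a fold of 93.2, on an ER site with folds of 35.5 and 48.0. At chr16:9140550-9142672 acetylation had the highest estradiol fold of the 20, 57.9, against 31.8 in the combination list.

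Some of the strongest regions had no GR site nearby. The region chr7:138535789-138538708 had folds of 37.6 and 34.6 with ER of both lists (28.1 and 26.3), and its nearest combination GR site was 895676 bp away. The region chr10:125254777-125258601 had folds of 49.6 and 25.7, with 2 ER sites in each ER list and the nearest combination GR site 1230954 bp away. One region of the 20, chr2:24561029-24563236 (30.2 and 22.6), had no estradiol ER site within 971220 bp and a combination ER site with a fold of 12.8. The widest of all E2-plus-combination regions, chr22:40042922-40051430, was a single estradiol peak of 8509 bp that the combination list broke into 6 peaks covering 4425 bp.

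The 29 regions with a dexamethasone GR site were a small minority, and the strongest of them mostly held ER too. Estradiol ER also lay near 63.0% of the strongest 25% of all E2-plus-combination regions, so holding ER did not set these apart. At chr17:2288748-2289934, with H3K27ac folds of 16.4 and 18.9, GR had a fold of 13.3 after dexamethasone and 22.7 after the combination, beside 2 ER sites in each ER list. At chr16:50987631-50989055 (21.2 and 11.4) GR had a fold of 13.4 after dexamethasone and 72.9 after the combination, on an ER site with folds of 46.9 and 66.9. At chr19:5804240-5804948 (24.6 and 12.6) a dexamethasone GR site (19.0) lay 975 bp away, and the nearest estradiol ER site was 72742 bp away.

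Most E2-plus-combination regions had no receptor site within 1 kb, but they lacked one less often than other regions. The 951 such regions are 65.7% of the class (63.2 to 68.2), against 87.0% of all merged regions and 91.4% of the estradiol list alone. Of the 951, 253 (26.6%) had an estradiol ER site within 10 kb, and 185 (19.5%) lay within 50 kb of an E2-plus-combination region that had one. Their median distance to the closest estradiol ER site was 63530 bp. For 677 regions (46.8%, 44.2 to 49.4), no site of any receptor list lay within 10 kb, against 75.5% of all merged regions and 77.3% of the estradiol list alone. The strongest of those, chr4:1911956-1913201, had H3K27ac folds of 18.1 and 16.2 and its nearest estradiol ER site at 695440 bp. The next, chr11:128724134-128725940 (15.6 and 18.8), lay 12923 bp from an estradiol ER site. At chr22:39197813-39199079 (17.5 and 22.4) the nearest site was at 371862 bp.

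ER sites were also nearer to these regions by distance and in wider windows, which include the sites within 1 kb. An excess among regions with no ER site within 1 kb was not computed. The median distance to the nearest estradiol ER site was 9168 bp for E2-plus-combination regions, 137666 bp for regions of the estradiol list alone, 125725 bp for regions of all 4 lists and 155999 bp for all merged regions. Within 10 kb, 50.9% (48.3 to 53.5) of E2-plus-combination regions had an estradiol ER site, against 18.6% of all merged regions. Within 100 kb it was 70.6% against 42.1%. Dexamethasone GR showed no such excess, with 28.9% (26.6 to 31.3) within 100 kb against 27.8% of all merged regions.

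E2-plus-combination regions often had others of their kind close by. Another one lay within 50 kb of 717 (49.6%). The same measure was 67.3% in the 7516 regions of all 4 lists and 45.0% in the 3899 regions of the estradiol list alone. It was 43.3% in the 916 regions of the dexamethasone and combination lists only. This measure rises with the number of regions in a class. Joined at that distance, the 1447 regions formed 978 groups, of which 730 were single regions, 150 were pairs and 98 had 3 or more. The 98 larger groups held 417 regions, and 89 of the 98 (90.8%, 83.3 to 95.7) had an estradiol ER site within their span. Joined the same way, groups of 3 or more had one in 107 of 216 cases (49.5%) for the estradiol list alone and 349 of 753 (46.3%) for regions of all 4 lists. The median spans were 32.2, 41.0 and 49.3 kb in that order. Within 1 kb, estradiol ER was found at 45.8% of the regions in the larger groups and at 18.4% of the single regions.

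The largest group, chr17:80320817-80395656, held 12 regions over 74.8 kb, 1 of which had an ER site, with 8 vehicle and 7 dexamethasone H3K27ac peaks between them. The next, chr16:16043689-16107097, held 11 regions, 6 with ER and 2 with combination GR, and had 1 vehicle and 2 dexamethasone peaks. A group of 9 at chr18:20400718-20510186 had 13 vehicle and 17 dexamethasone peaks in its span and 1 region with ER. A group of 8 at chr2:11606473-11682155 held 8 estradiol ER sites, 11 estradiol and 15 combination H3K27ac peaks, and 0 vehicle and 0 dexamethasone peaks over 75.7 kb. Its strongest region, chr2:11679103-11682155, had a higher fold with the combination (34.6) than with estradiol (20) and a combination GR site with a fold of 52.9. Another group of 8, chr2:238398356-238481598, which includes the second strongest region, also had 0 vehicle and 0 dexamethasone peaks, with 10 estradiol and 13 combination peaks. By chromosome, these regions made up 8.59% of the merged regions of chromosome 16, the highest share, 7.41% on chromosome 21 and 3.26% on chromosome 4, the lowest.

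Absence from the vehicle and dexamethasone lists is a call, and some regions adjoined acetylated chromatin. A vehicle H3K27ac peak lay within 1 kb of 323 (22.3%, 20.2 to 24.6), where 31.0% of all regions without a vehicle peak had one. A dexamethasone H3K27ac peak lay within 1 kb of 173 (12%, 10.3 to 13.7), against 13.5% of all regions without a dexamethasone peak. The median distances were 11673 bp to a vehicle peak and 33417 bp to a dexamethasone peak. For regions with such a neighbour, a new region and a wider old one cannot be told apart in these lists. The 1069 regions with neither kind of peak within 1 kb had estradiol ER nearby in 39.1% of cases.

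The calling threshold was a p of 1e-10 (−log10 p of 10). The weaker of the estradiol and combination peaks had a −log10 p under 12 in 30 regions (2.07%). The same share over all merged regions was not computed. It covers called peaks only: signal below the threshold in the vehicle and dexamethasone libraries is not in the lists. How firm the absence calls are cannot be read from it. Just inside were chr5:55964881-55965400, with 10.47 in the estradiol list, and chr6:37060459-37061347, with 10.71 in the combination list. Just outside was chr7:112032023-112032712, which had peaks in both of those lists and a vehicle peak with 10.2, one of 16 such regions among 5699 held by the vehicle, estradiol and combination lists.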

How the data were processed

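The 8 peak lists analysed are 4 of H3K27ac and 4 of ER or GR, with 1 library per group. The submitters' processing notes name hg19, Bowtie 1.1.2 and MACS2 2.1.0.20140616. Each library was set against a control at a p cutoff of 1e-10, with at most 1 tag per position and the larger library scaled down, per the file headers. The control held 14002417 usable tags for H3K27ac, 3479280 for ER and 5735043 for GR, so the kinds of list rest on different controls. The 1 control sample described, for H3K27ac, carries labels of both input and IgG, and what the ER and GR controls were is not given in the sources used here. The deposited pileup is a signal (coverage at the summit), significance is the authors' −log10 p and −log10 q, and the fold enrichment is the authors' ratio over local control. These values were used to describe or rank peaks within a list. Positions are the deposited 1-based hg19 coordinates.

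H3K27ac peaks were merged when overlapping or bookended, and receptor sites were assigned within 1 kb (Python 3.11.15, pandas 2.3.3, scipy 1.17.1). Shares carry exact Clopper-Pearson 95% intervals and ratios carry 95% intervals on the log scale. Named regions are the 20 with the best mean rank of −log10 q, and the 5 first of each further kind: widest, most ER sites, strongest without a receptor site within 10 kb, strongest with dexamethasone GR, and closest to the threshold. A few of each are printed. The overlap code was tested on simulated intervals. The regions, classes and comparisons were chosen with earlier results of these data known. Gene names, promoters, motifs and sequences were not analysed here, for want of a genome or annotation of that build.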

Additional observations from a re-analysis of the deposited data

How the results depend on the processing

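The ratios to the estradiol list alone stayed above 1 under each setting that gave a value. The dexamethasone GR share was below that of all merged regions within 1 kb, for overlapping sites and within 10 kb (7.33% against 10.0%). It was not below with the dexamethasone H3K27ac list left out. With both peaks in the stronger 50% its interval (1.72 to 7.62) included the 4.63% of all merged regions. With joined peaks, lists of equal length or cut receptor lists, the share of all merged regions was not computed. Of 60 recomputed values, 18 stayed within their counting interval or within 1.5 times the count and 42 moved. The number of regions was 952 with H3K27ac peaks joined up to 500 bp apart, 811 with the H3K27ac lists cut to equal length and 203 with both peaks in the stronger 50% of their lists.

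Shares with a site near the regions are given for estradiol ER, combination ER, combination GR and, where it moved, dexamethasone GR. They were 39.1%, 33.3% and 14.7% with no vehicle or dexamethasone peak within 1 kb, and 35.3%, 32.3% and 14.9% with lists of equal length. They were 74.4%, 72.9%, 39.4% and 3.94% with both peaks in the stronger 50%, and 19.3%, 17.3%, 7.12% and 0.829% for sites overlapping the region. They were 50.9%, 44.5%, 24% and 7.33% within 10 kb, and 24.9%, 20.6%, 5.81% and 1.31% with receptor lists cut to their stronger 50%. Without the dexamethasone list, added after seeing the data, estradiol ER was 28.3%, combination ER 24.1% and dexamethasone GR 4.58%.

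The ratio of the estradiol ER share to that of the estradiol list alone was 4.76 with no vehicle or dexamethasone peak within 1 kb, 6.83 with both peaks in the stronger 50%, 9.52 for overlapping sites, 2.5 within 10 kb and 4.99 with the stronger 50% of receptor sites. By width it was 2.27 (under 300 bp, interval 0.356 to 14.5), 2.22, 2.39 and 1.88. By strength of estradiol acetylation, added afterwards, it was 4.76, 3.37 and 2.65, with no value in the strongest class. The ratio of combination GR at the strongest ER sites was 3.32 for overlapping sites and 3.4 with the stronger 50% of receptor sites. With both H3K27ac peaks in the stronger 50% it was 2.39, and its interval (0.713 to 8.03) included 1. The causes of these movements were not tested, beyond the fewer or more regions and sites that each setting keeps. The planned shares of estrogen response elements and of gene starts were not run, since they need an hg19 genome or annotation. No paired analysis was possible because each group holds 1 library.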
